A study of Mus musculus with 8 samples.

Results

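The endoplasmic reticulum (ER), the compartment in which secreted and membrane proteins are inserted, folded and checked, was followed through 38 genes in uterine stroma with or without the autophagy gene Atg7 and with or without estradiol. They were chosen by name, and all 38 were found among the 23238 gene symbols of the count files and had enough reads to be tested. They comprise 15 chaperones and folding enzymes, 7 subunits of the translocon, 5 subunits of the signal peptidase, 4 genes of ER-associated degradation, and 7 stress sensors and transcription factors. After estradiol, the same 22 of them (57.9%) were higher in both genotypes, against 13.1% of all genes tested in deleted stroma and 15.8% in control stroma. These were 11 chaperones and folding enzymes, 5 translocon subunits, all 5 signal peptidase subunits and Sel1l of the degradation pathway. Ddit3, the stress factor CHOP, and Herpud1 were lower in both. Many of these calls were lost when a single library was left out, as given below. The main chaperone Hspa5, the transcription factor Xbp1 and the sensors Atf6, Ern1 and Eif2ak3 did not pass the test in either genotype. No member passed it between stroma with and without Atg7.

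The libraries hold RNA of uterine stromal cells in 4 groups of 2, from ovariectomized (OVX) mice whose strain is labelled C57BL/6-ICR. The deleted genotype, labelled Atg7d/d, carries floxed Atg7 with Amhr2cre, a Cre recombinase expressed from Amhr2, a gene of the mesenchyme of the female reproductive tract, and received estradiol (E2) or oil. The control genotype, labelled Atg7f/f, carries the floxed gene without a Cre named in the labels, and also received estradiol or oil. Cre itself and the loss of Atg7 therefore cannot be told apart, and the dose of estradiol, the time after it and the way the cells were isolated are not given in the labels.

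Each library held 5458390 to 6951080 counts from the 3′ ends of transcripts. Levels are given as counts scaled to a common library size and composition (CPM), and do not grow with transcript length in this kind of library. Atg7 itself had 22 to 23 counts in the deleted estradiol libraries and 21 to 33 in the deleted oil libraries, against 20 to 23 in the control estradiol libraries and 22 to 32 in the control oil libraries. Reads at the 3′ end do not cover a deletion of internal exons, so these counts check nothing about the genotype. The control oil libraries were the least alike pair, with 14.9% of all genes differing by more than 2-fold between them, against 5.16% to 7.38% in the other pairs. Among the 38 genes, Sdf2l1, Hyou1, Sec61a1, Sec61g, Spcs3 and Atf4 differed by more than 2-fold between the control oil libraries. The labels do not say whether the libraries of a group come from different animals, and the spread behind the p-values may then be technical alone.

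Proteins bound for secretion enter the ER through the translocon, lose their signal peptide to the signal peptidase, and are folded by chaperones and by enzymes that form disulfide bonds. Chains that fail to fold are pulled back out and destroyed by ER-associated degradation. When unfolded protein accumulates, the sensors IRE1 (Ern1), PERK (Eif2ak3) and ATF6 start the unfolded protein response: spliced XBP1 and cleaved ATF6 raise chaperone genes, and PERK raises translation of ATF4, which drives CHOP (Ddit3) and TRIB3. Counts of 3′ ends give the level of a transcript, and do not separate spliced from unspliced Xbp1 or measure phosphorylation, cleavage or translation.

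The promoters were searched for the sequence by which ATF6 and XBP1 are known to act. The ER stress response element (ERSE) is a CCAAT box, bound by NF-Y, and a CCACG motif with 9 bases of any kind between them. RefSeq promoter windows (GRCm38.p6) were found for 31 of the 38 genes. The 250 bases before each start site were searched on both strands for exact matches. The element was found in 7 of 13 windows of chaperones and folding enzymes, which is 53.8%, against 35 of the 27025 windows of all genes, which is 0.130%. It was also found in the window of Syvn1, the ubiquitin ligase of ER-associated degradation. No match to these letters lay in the windows of 5 translocon genes, 3 signal peptidase genes or 6 stress sensors and factors. The matches are printed here on the strand of the gene with 5 bases on either side and the element in capitals, since they are what these chaperone genes share. They lie at chr2:34772020-34772048 for Hspa5, chr10:86705633-86705661 and chr10:86705528-86705556 for Hsp90b1, chr8:84847070-84847098 for Calr, chr11:50325795-50325823 for Canx, chr12:17266486-17266514 for Pdia6, chr14:118937822-118937850 for Dnajc3 and chr19:6046527-6046555 for Syvn1. Hsp90b1, Calr and Canx are on the minus strand of the chromosome and the others on the plus strand.
Hspa5: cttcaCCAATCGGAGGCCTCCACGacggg
Hsp90b1, distal: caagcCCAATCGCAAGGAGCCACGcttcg
Hsp90b1, proximal: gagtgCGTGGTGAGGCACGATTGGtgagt
Calr: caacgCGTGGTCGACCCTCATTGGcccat
Canx: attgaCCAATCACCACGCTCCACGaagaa
Pdia6: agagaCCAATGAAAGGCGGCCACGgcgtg
Dnajc3: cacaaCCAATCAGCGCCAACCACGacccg
Syvn1: cgcaaCCAATCGGCGGTAGCCACGggaac

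In Calr and in the proximal match of Hsp90b1 the element lies in reverse orientation, so that it reads CGTGG first and ATTGG last. Creld2, a folding factor with large changes below, also carries it in reverse. Its window at chr15:88819396-88819645 (plus strand) is shown whole, with the ERSE in capitals, to be set beside that of a gene without an exact match.
Creld2: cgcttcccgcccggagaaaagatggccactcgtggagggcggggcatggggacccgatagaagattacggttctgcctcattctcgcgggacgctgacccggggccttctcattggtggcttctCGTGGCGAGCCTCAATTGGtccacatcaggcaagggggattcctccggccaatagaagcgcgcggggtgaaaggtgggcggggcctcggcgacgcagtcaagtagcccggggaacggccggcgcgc

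The comparison is Ddit3, the gene with the clearest fall after estradiol. Its window at chr10:127290543-127290792 (plus strand) held no exact ERSE and no CCACG on either strand. Capitals mark its single CCAAT box, which reads ATTGG on this strand. The bases cgtgc stand before it at the spacing of a reversed ERSE and differ from CGTGG only in the last base. Ddit3 is therefore not a gene shown to lack the element.
Ddit3: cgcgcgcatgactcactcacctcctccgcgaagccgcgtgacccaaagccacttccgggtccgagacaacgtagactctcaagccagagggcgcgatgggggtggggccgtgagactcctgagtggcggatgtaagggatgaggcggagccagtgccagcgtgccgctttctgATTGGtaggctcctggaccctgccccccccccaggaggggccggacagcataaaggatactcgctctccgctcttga

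Herpud1 carries a shorter form, ERSE-II, in which ATTGG and CCACG stand with 1 base between them, at chr8:94386372-94386392 (plus strand). ERSE-II was found in 10 of the 27025 windows of all genes, which is 0.0370%, and Herpud1 was the only member that held it.
Herpud1: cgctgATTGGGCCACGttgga

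A CCAAT box, which is part of the ERSE, was found on either strand in 13 of 13 windows of chaperones and folding enzymes, against 37.5% of all windows. The CCACG motif, also part of the ERSE, was found in 10 of these 13, against 31.0% of all windows. The letters TGACGTGG, an element bound by XBP1, were in none of the 31 windows of members, against 0.603% of all windows. The letters TGATGNAA, the core of an ATF4 element, were found among members only in Herpud1, against 3.91% of all windows. A match is a run of letters in the window and not evidence of binding, and the RefSeq start site may not be the one used in these cells. Only exact letters counted as a match, so a window without one may still hold a copy with a changed base.

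Estradiol was followed by higher levels of 22 of the 38 genes in Atg7-deleted stroma (57.9%), against 13.1% of the 13347 genes tested, and in control stroma by higher levels of the same 22 (57.9%), against 15.8% of all genes. Lower levels were called for 2 members in deleted stroma (5.26%), against 11.2% of all genes, and for 4 in control stroma (10.5%), against 14.0% of all genes. The median log2 fold change of estradiol over oil was 0.99 over the 38 genes in deleted stroma, against 0.02 over all genes, and 0.95 in control stroma, against 0.01 over all genes. Calls are an adjusted p below 0.05 in edgeR's quasi-likelihood test with Benjamini-Hochberg adjustment over all genes tested, here and for every gene below. Fold changes are given with their standard error (± SE, 2 libraries per group). The libraries of the estradiol and oil groups did not overlap, with estradiol higher, for 31 members in deleted stroma (81.6%, against 35.5% of all genes) and for 28 in control stroma (73.7%, against 33.8% of all genes). They did not overlap, with estradiol lower, for 5 members in each genotype (13.2%, against 32.7% of all genes in deleted stroma and 31.7% in control stroma). In either direction, 36 members in deleted stroma and 33 in control stroma did not overlap, against 68.2% and 65.5% of all genes, and 24 members in deleted stroma and 26 in control stroma were called, against 24.3% and 29.8% of all genes. With 1 library left out at a time, 13 of the 24 calls in deleted stroma and 11 of the 26 in control stroma were lost at least once. These are given beside each gene.

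**Figure D1:**
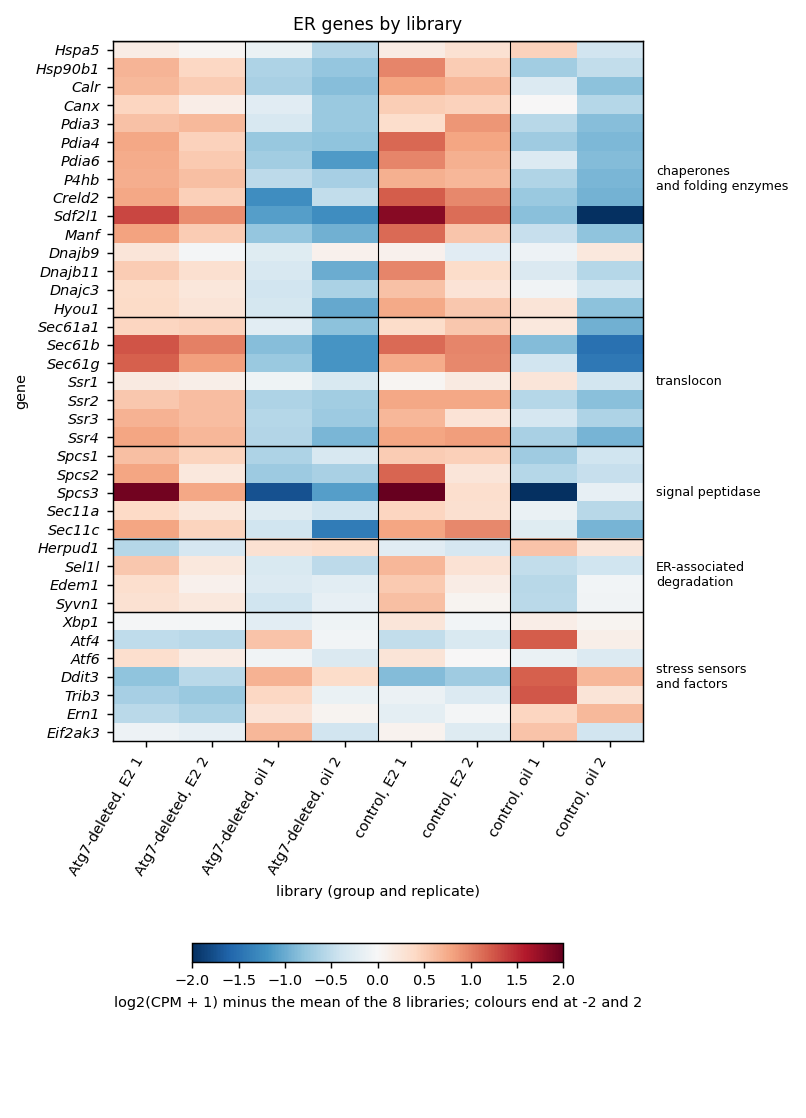
Level of each of the 38 genes in each of the 8 libraries, as log2(CPM + 1) minus the gene's mean over the libraries, with genes in rows grouped by class and colours ending at -2 and 2. The estradiol columns are red and the oil columns blue for most chaperones, translocon and signal peptidase genes, and the colours are the other way round for Herpud1, Atf4, Ddit3, Trib3 and Ern1.

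Among chaperones and folding enzymes, 11 of 15 were called higher after estradiol in each genotype, and none lower. The median log2 fold change of the class was 1.25 in deleted stroma and 1.35 in control stroma. The 4 that were not called in either genotype were Hspa5, Canx, Dnajb9 and Hyou1.

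Hspa5 (BiP; chromosome 2, 34771970 to 34777547, GENCODE M21 on mm10, as for all gene coordinates) is the HSP70 chaperone of the ER lumen and had the most 3′ reads of the 38 genes. It had 4220 and 3921 CPM with estradiol against 3482 and 2552 CPM with oil in Atg7-deleted stroma, and 4273 and 4704 CPM with estradiol against 5288 and 2946 CPM with oil in control stroma. Control oil library 1 was the highest of all 8, so the control groups overlapped, whereas both deleted estradiol libraries lay above both deleted oil libraries. The log2 fold change of estradiol over oil was 0.43 ± 0.29 in deleted stroma (adjusted p = 0.304) and 0.12 ± 0.29 in control stroma (adjusted p = 0.773). Without control oil library 1 the control value was 0.63 (adjusted p = 0.101). Without deleted oil library 1 the deleted value was 0.68 (adjusted p = 0.256). Over all alternatives the control value ran from -0.27 to 0.63. Hspa5 made up 40.9% to 45.2% of the summed CPM of the class in the 4 estradiol libraries and 54.8% to 65.4% in the 4 oil libraries.

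Sdf2l1, which acts with Dnajb11 in keeping unfolded chains soluble, showed the largest rise of the class. It had 41.7 and 31.2 CPM in the deleted estradiol libraries and 6.95 and 6.14 CPM in the deleted oil libraries, and 59.2 and 36.0 CPM in the control estradiol libraries and 8.52 and 3.19 CPM in the control oil libraries. The estradiol libraries were all far above the oil libraries, and the log2 fold change was 2.47 ± 0.42 in deleted stroma and 3.01 ± 0.42 in control stroma. Creld2, a disulfide isomerase-like protein, had 36.9 and 29.6 CPM after estradiol and 8.38 and 14.7 CPM after oil in deleted stroma, with 50.1 and 42.0 CPM after estradiol and 12.1 and 10.4 CPM after oil in control stroma. Its groups did not overlap in either genotype, with log2 fold changes of 1.53 ± 0.28 in deleted stroma and 2.02 ± 0.29 in control stroma. It no longer passed in deleted stroma without deleted estradiol library 1 (adjusted p = 0.0647). Manf, a cofactor of Hspa5 that is also secreted, had 270.4 and 220.0 CPM with estradiol against 89.6 and 78.6 CPM with oil in Atg7-deleted stroma, and 337 and 228 CPM with estradiol against 112 and 87.5 CPM with oil in control stroma. Both estradiol libraries of each genotype were above its oil libraries, and it rose by 1.54 ± 0.24 in deleted stroma and 1.51 ± 0.24 in control stroma on the log2 scale.

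The protein disulfide isomerases, which form and reshuffle disulfide bonds, rose together. Pdia4 had 123 and 97.5 CPM in the deleted estradiol libraries and 41.4 and 40.0 CPM in the deleted oil libraries, and 159 and 124 CPM in the control estradiol libraries and 42.9 and 37.5 CPM in the control oil libraries. Its oil libraries lay within a few CPM of each other and far below every estradiol library, and it rose by 1.43 ± 0.20 (log2) in deleted stroma (adjusted p = 0.00259) and 1.81 ± 0.20 in control stroma (adjusted p = 8.98e-04). P4hb, the classical disulfide isomerase and a subunit of the prolyl 4-hydroxylase that modifies collagen, had 1119 and 1028 CPM after estradiol and 468 and 427 CPM after oil in deleted stroma, with 1104 and 1068 CPM after estradiol and 446 and 357 CPM after oil in control stroma. The groups were well apart in both genotypes, with rises of 1.26 ± 0.18 in deleted stroma and 1.44 ± 0.18 in control stroma on the log2 scale. Pdia6, which also acts on the sensors of the unfolded protein response, had 574 and 489 CPM with estradiol against 210.2 and 156 CPM with oil in Atg7-deleted stroma, and 673 and 562 CPM with estradiol against 283 and 187 CPM with oil in control stroma. It rose by 1.54 ± 0.25 in deleted stroma and 1.39 ± 0.25 in control stroma, with no overlap of the libraries. Pdia3, the isomerase that works on glycoproteins with calnexin and calreticulin, had 817 and 849 CPM in the deleted estradiol libraries and 435 and 324 CPM in the deleted oil libraries, and 698 and 1006 CPM in the control estradiol libraries and 370.4 and 299 CPM in the control oil libraries. All estradiol libraries were above all oil libraries, and the rises were 1.13 ± 0.24 in deleted stroma and 1.35 ± 0.24 in control stroma. In deleted stroma Pdia3 no longer passed without either deleted estradiol library or without deleted oil library 2 (adjusted p of 0.0676 to 0.0726).

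Hsp90b1 (GRP94), the HSP90 chaperone of the ER, had 842 and 703 CPM after estradiol and 342 and 309 CPM after oil in deleted stroma, with 1031 and 750.4 CPM after estradiol and 326 and 372 CPM after oil in control stroma. It rose by 1.25 ± 0.21 in deleted stroma and 1.35 ± 0.21 in control stroma on the log2 scale, and no oil library reached any estradiol library. In deleted stroma it narrowly missed the threshold without deleted estradiol library 1 (adjusted p = 0.0525). Calr (calreticulin), a lectin chaperone that holds calcium, had 995 and 908 CPM with estradiol against 405 and 354 CPM with oil in Atg7-deleted stroma, and 1099.6 and 1006 CPM with estradiol against 525 and 359.7 CPM with oil in control stroma. Its groups did not overlap, and the rises were 1.33 ± 0.22 in deleted stroma and 1.25 ± 0.22 in control stroma. Canx (calnexin), its membrane-bound relative, was also higher in both estradiol libraries of each genotype, at 384 to 494 CPM in the 4 estradiol libraries and 208 to 350.4 CPM in the 4 oil libraries. It did not pass the test, with log2 fold changes of 0.76 ± 0.25 (adjusted p = 0.0549) in deleted stroma and 0.73 ± 0.25 (adjusted p = 0.0527) in control stroma.

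Among the J-domain partners of Hspa5, Dnajb11 had 36.5 and 31.9 CPM in the deleted estradiol libraries and 19.9 and 12.1 CPM in the deleted oil libraries, and 50.6 and 33.0 CPM in the control estradiol libraries and 20.5 and 16.6 CPM in the control oil libraries. It rose by 1.09 ± 0.30 in deleted stroma and 1.17 ± 0.30 in control stroma on the log2 scale, and its groups did not overlap. Dnajc3 (p58IPK), which also restrains PERK, had 158 and 143 CPM after estradiol and 93.7 and 78.8 CPM after oil in deleted stroma, with 184 and 147 CPM after estradiol and 116 and 94.4 CPM after oil in control stroma. Its rise was smaller, 0.80 ± 0.20 in deleted stroma and 0.66 ± 0.20 in control stroma, again with no overlap. These calls hung on single libraries. In deleted stroma Dnajb11 was lost without either estradiol library or oil library 2 of that genotype (adjusted p of 0.0914 to 0.156). Dnajc3 was lost there without any 1 of its 4 libraries (adjusted p of 0.0568 to 0.130). In control stroma Dnajb11 was lost without control estradiol library 1 or oil library 2 (adjusted p of 0.0630 to 0.135). Dnajc3 was lost there without any 1 of the 4 estradiol libraries or control oil library 2 (adjusted p of 0.0560 to 0.203). Dnajb9 (ERdj4), a J-domain protein that represses IRE1, lay between 26.9 and 38.1 CPM in all 8 libraries, and the groups overlapped, with log2 fold changes of 0.18 ± 0.23 in deleted stroma and -0.13 ± 0.23 in control stroma. Hyou1, the nucleotide exchange factor of Hspa5, lay between 151 and 213 CPM in the 4 estradiol libraries and between 61.4 and 150.5 CPM in the 4 oil libraries, the highest of which was control oil library 1. Its log2 fold changes of 0.98 ± 0.34 in deleted stroma (adjusted p = 0.0656) and 0.85 ± 0.34 in control stroma (adjusted p = 0.0890) did not pass. Without control oil library 1, the oil library highest in both genes, the control value was 1.53 for Hyou1 and 1.08 for Canx. These were the highest control values over all alternatives, which ran from 0.37 for Hyou1 and from 0.44 for Canx. The deleted values, 0.98 for Hyou1 and 0.75 for Canx, hardly moved without that library.

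Chaperones with and without an exact ERSE match had overlapping ranges of fold change. A link between the element and the response was not tested, since a copy with a changed base counts here as absent. Manf and Hyou1 had no window. Of the 7 whose window held it, 5 were called higher after estradiol in each genotype, with log2 fold changes from 0.43 to 1.54 in deleted stroma and from 0.12 to 2.02 in control stroma. Of the 6 whose window did not, 5 were called higher in each genotype, with values from 0.18 to 2.47 in deleted stroma and from -0.13 to 3.01 in control stroma. Syvn1, with an ERSE, and Herpud1, with an ERSE-II, had fold changes of opposite sign in both genotypes, of which those of Syvn1 did not pass the test.

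**Figure D2:**
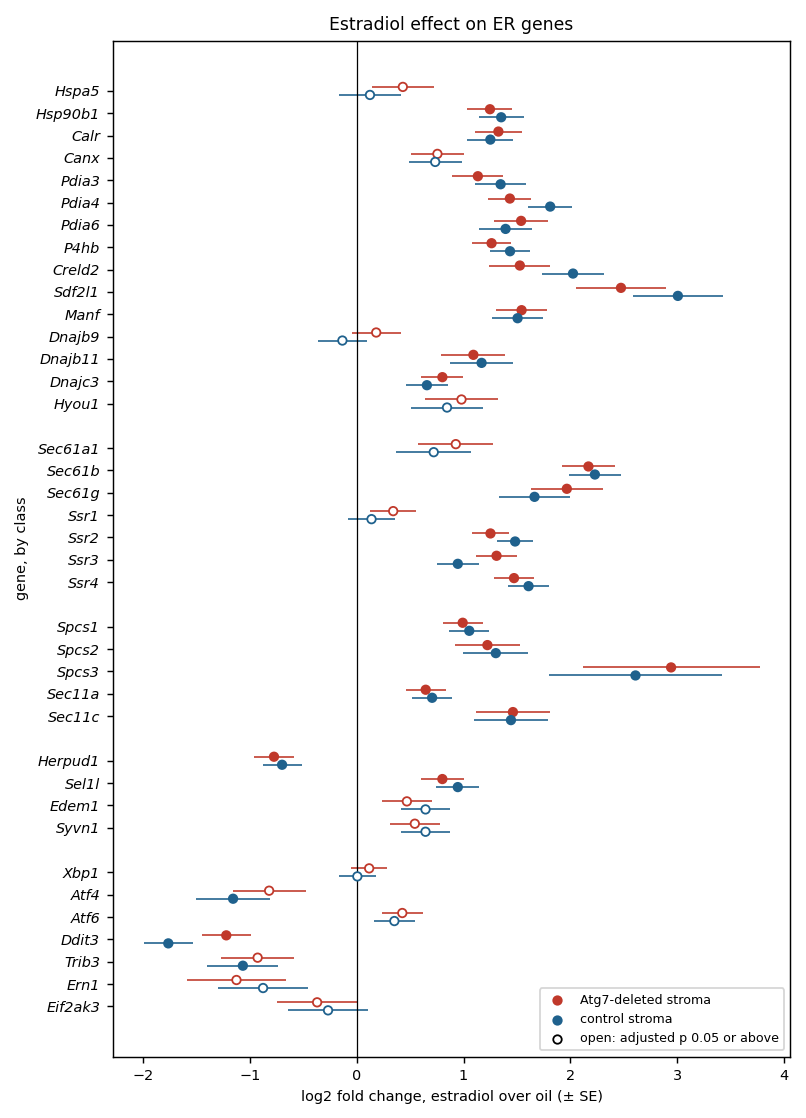
Log2 fold change of estradiol over oil for the 38 genes, with bars of ± SE, in Atg7-deleted stroma (red) and control stroma (blue), with open circles for an adjusted p of 0.05 or above. Nearly all chaperones, translocon and signal peptidase genes lie right of 0, Herpud1 and 5 of the 7 stress sensors and factors lie left of it, and the bars of the genotypes overlap for most genes.

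All 7 translocon genes had positive fold changes after estradiol in both genotypes, and 5 of 7 passed the test in each, with medians of 1.31 in deleted stroma and 1.48 in control stroma. The translocon is built from the channel subunit Sec61a1, the small tail-anchored subunits Sec61b and Sec61g, and the translocon-associated complex of Ssr1 to Ssr4, which helps certain signal peptides to enter. Sec61b (chromosome 4, 47474658 to 47483242) had 262 and 221 CPM with estradiol against 60.1 and 47.4 CPM with oil in Atg7-deleted stroma, and 241 and 215 CPM with estradiol against 59.3 and 37.9 CPM with oil in control stroma. Every estradiol library was several times above every oil library, and the rises of 2.17 ± 0.25 in deleted stroma (adjusted p = 0.00137) and 2.23 ± 0.25 in control stroma (adjusted p = 8.98e-04) had the smallest p of all 38 genes in each genotype. The last bases of Sec61b transcripts are 98.3% identical over 298 bases to the annotated gene Gm10320, which the count files do not list, so its level is uncertain where reads match both. Sec61g had 872 and 668 CPM in the deleted estradiol libraries and 226 and 168 CPM in the deleted oil libraries, and 634 and 737 CPM in the control estradiol libraries and 292 and 141 CPM in the control oil libraries. It rose by 1.97 ± 0.33 in deleted stroma and 1.66 ± 0.33 in control stroma, with no overlap although control oil library 1 was more than 2-fold above control oil library 2.

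Sec61a1, the channel itself, was not called. It had 1375 and 1399 CPM after estradiol and 882 and 576 CPM after oil in deleted stroma, with 1323 and 1475 CPM after estradiol and 1175 and 522 CPM after oil in control stroma. Both estradiol libraries were above both oil libraries in each genotype, but control oil library 1 came close to them, and the log2 fold changes of 0.93 ± 0.35 (adjusted p = 0.0842) in deleted stroma and 0.72 ± 0.35 (adjusted p = 0.149) in control stroma missed the threshold. Without control oil library 1 the values were 0.92 in deleted stroma and 1.45 in control stroma. Over all alternatives the control value of Sec61a1 ran from 0.22 to 1.45.

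Of the translocon-associated complex, Ssr4, its delta subunit, had 243 and 223 CPM with estradiol against 93.9 and 74.2 CPM with oil in Atg7-deleted stroma, and 244 and 252 CPM with estradiol against 89.1 and 73.5 CPM with oil in control stroma. The estradiol libraries were all higher, with rises of 1.47 ± 0.19 in deleted stroma and 1.61 ± 0.19 in control stroma. Ssr2, its beta subunit, had 150.1 and 159 CPM in the deleted estradiol libraries and 66.7 and 63.2 CPM in the deleted oil libraries, and 177 and 178 CPM in the control estradiol libraries and 69.4 and 57.4 CPM in the control oil libraries. The pairs were tight and far apart, and Ssr2 rose by 1.25 ± 0.17 in deleted stroma and 1.48 ± 0.17 in control stroma. Ssr3, its gamma subunit, had 353 and 333 CPM after estradiol and 146 and 131 CPM after oil in deleted stroma, with 344 and 262 CPM after estradiol and 173 and 142 CPM after oil in control stroma. No libraries overlapped, and the rises were 1.31 ± 0.20 in deleted stroma and 0.95 ± 0.19 in control stroma. It was not called in control stroma without control estradiol library 1 (0.74, adjusted p = 0.0698). Ssr1, the alpha subunit, lay between 192 and 292 CPM in all 8 libraries, and its log2 fold changes of 0.34 ± 0.22 in deleted stroma and 0.14 ± 0.22 in control stroma did not pass.

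All 5 subunits of the signal peptidase rose in both genotypes, with median log2 fold changes of 1.22 in deleted stroma and 1.30 in control stroma. Sec11c and Sec11a are the alternative catalytic subunits. Sec11c had 87.3 and 68.6 CPM with estradiol against 38.1 and 18.4 CPM with oil in Atg7-deleted stroma, and 87.2 and 99.0 CPM with estradiol against 42.4 and 25.8 CPM with oil in control stroma. All estradiol libraries were above all oil libraries, and the rise was 1.46 ± 0.35 in deleted stroma and 1.44 ± 0.35 in control stroma. Sec11a had 234 and 208 CPM in the deleted estradiol libraries and 148 and 135 CPM in the deleted oil libraries, and 239 and 222 CPM in the control estradiol libraries and 162 and 121 CPM in the control oil libraries. Its groups did not overlap, and its rise was 0.65 ± 0.19 in deleted stroma and 0.71 ± 0.19 in control stroma. In deleted stroma Sec11c was lost without either deleted estradiol library or deleted oil library 2 (adjusted p of 0.0595 to 0.120). Sec11a was lost there without any 1 of the 4 deleted libraries or either control estradiol library (adjusted p of 0.0610 to 0.199). In control stroma both were lost without either control estradiol library or control oil library 2. They then had adjusted p of 0.0502 to 0.0731 for Sec11c and 0.0731 to 0.116 for Sec11a. Nmb, on the same strand, reaches within 500 bases of the 3′ end of Sec11a, and had 807 counts over all libraries against 9250 for Sec11a.

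Of the noncatalytic subunits, Spcs1 had 168 and 152 CPM after estradiol and 72.1 and 88.4 CPM after oil in deleted stroma, with 158 and 155 CPM after estradiol and 66.9 and 84.1 CPM after oil in control stroma. Its pairs were tight and the rise was 0.99 ± 0.19 in deleted stroma and 1.05 ± 0.19 in control stroma. Its call in deleted stroma was lost without estradiol library 1 or oil library 1 of that genotype (adjusted p of 0.0596 to 0.0680). Spcs2 had 223 and 150.1 CPM with estradiol against 77.4 and 82.4 CPM with oil in Atg7-deleted stroma, and 291 and 153 CPM with estradiol against 86.8 and 93.5 CPM with oil in control stroma. Estradiol library 1 was well above estradiol library 2 in each genotype, yet both were above the oil libraries, and the rises were 1.22 ± 0.30 in deleted stroma and 1.30 ± 0.30 in control stroma. It was not called in deleted stroma without deleted estradiol library 1 or either deleted oil library (adjusted p of 0.0763 to 0.155). Nor was it called in control stroma without control estradiol library 1, where its value was 0.77 (adjusted p = 0.0990). Spcs3 had 129.5 and 57.6 CPM in the deleted estradiol libraries and 9.32 and 14.97 CPM in the deleted oil libraries, and 172 and 42.4 CPM in the control estradiol libraries and 5.68 and 29.7 CPM in the control oil libraries. It had the widest spread between libraries of a group among the members, so its rises of 2.94 ± 0.83 (adjusted p = 0.0319) in deleted stroma and 2.61 ± 0.81 (adjusted p = 0.0385) in control stroma carry large errors. Without control oil library 1 its value in control stroma was 1.89 (adjusted p = 0.0967), and without deleted oil library 1 its value in deleted stroma was 2.64 (adjusted p = 0.150). Spcs3 was lost in deleted stroma without any 1 of the 4 deleted libraries (adjusted p of 0.0643 to 0.181). In control stroma it was lost without control oil library 1, either deleted estradiol library or control estradiol library 1 (adjusted p of 0.0565 to 0.316). Without the last its value was 1.28.

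**Figure D3:**
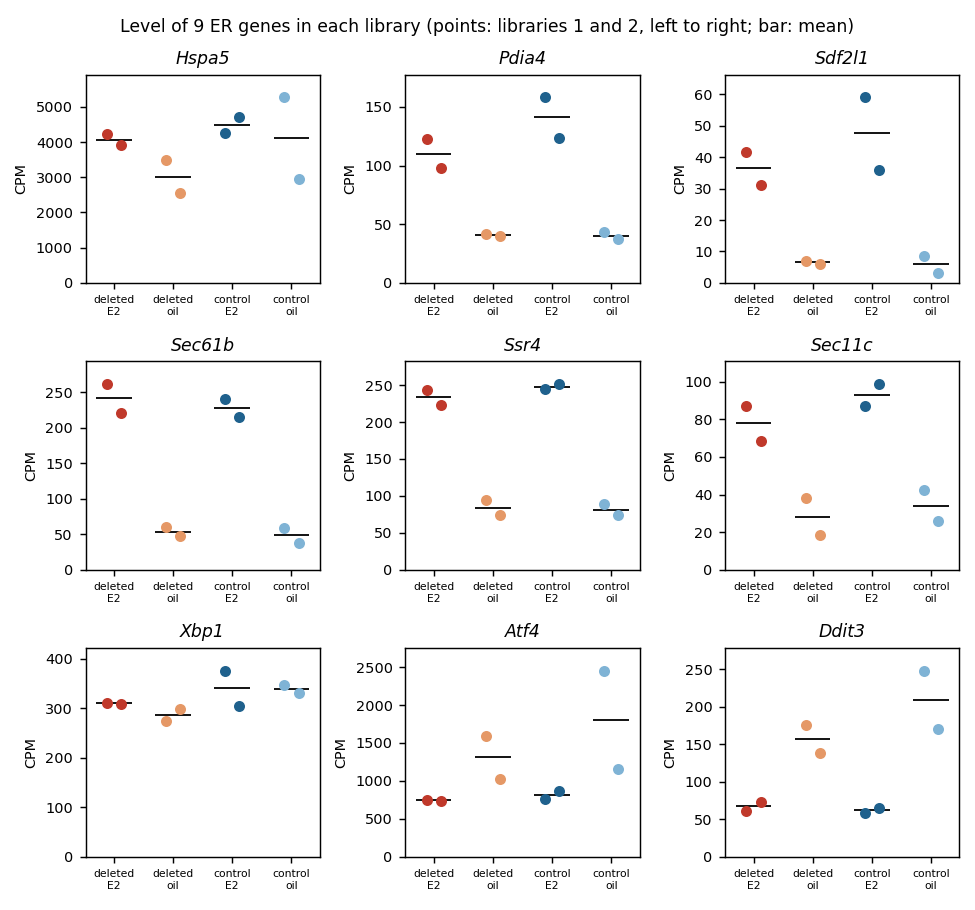
Level in CPM of 9 of the genes in each library, from a zero baseline, with libraries 1 and 2 of a group side by side and a bar at their mean. Pdia4, Sdf2l1, Sec61b, Ssr4 and Sec11c show estradiol libraries above all oil libraries, Ddit3 the reverse, Xbp1 a narrow band from 274 to 376 CPM, and Hspa5 and Atf4 a control oil library 1 above all others.

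The genes of ER-associated degradation did not move as a group. Sel1l, the adaptor of the ubiquitin ligase Syvn1 (HRD1), had 174 and 138 CPM after estradiol and 96.1 and 82.4 CPM after oil in deleted stroma, with 189.8 and 146 CPM after estradiol and 83.8 and 90.3 CPM after oil in control stroma. It was higher in all estradiol libraries and rose by 0.80 ± 0.20 in deleted stroma and 0.95 ± 0.20 in control stroma. The call was lost in deleted stroma without any 1 of the 4 deleted libraries (adjusted p of 0.0553 to 0.165) and in control stroma without control estradiol library 1 (adjusted p = 0.0789). Herpud1, the membrane protein that brings HRD1 complexes together, had 263 and 312 CPM with estradiol against 483 and 501 CPM with oil in Atg7-deleted stroma, and 335 and 310.1 CPM with estradiol against 581 and 466 CPM with oil in control stroma. It was lower in every estradiol library than in every oil library, and fell by 0.77 ± 0.18 on the log2 scale in deleted stroma (adjusted p = 0.0170) and 0.70 ± 0.18 in control stroma (adjusted p = 0.0210). It too was not called in deleted stroma without any 1 of the 4 deleted libraries (adjusted p of 0.0675 to 0.150). In control stroma it was not called without either control estradiol library or control oil library 1 (adjusted p of 0.0862 to 0.119). Its value stayed negative in all of these. Syvn1 lay between 153 and 223 CPM in the estradiol libraries and between 101 and 139.5 CPM in the oil libraries. Edem1, which selects misfolded glycoproteins, lay between 44.2 and 60.1 CPM in the estradiol libraries and between 27.9 and 40.2 CPM in the oil libraries. Neither gene's libraries overlapped, but their log2 fold changes did not pass, at 0.54 ± 0.23 for Syvn1 and 0.47 ± 0.23 for Edem1 in deleted stroma (adjusted p = 0.118 and 0.169), and 0.64 ± 0.23 for Syvn1 and 0.64 ± 0.23 for Edem1 in control stroma (adjusted p = 0.0655 and 0.0653). Mrpl49, on the opposite strand, reaches within 500 bases of the 3′ end of Syvn1. It had 1050 counts over all libraries against 7594 for Syvn1, and strand use in the counting is not stated.

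None of the 7 stress sensors and factors rose after estradiol in either genotype. In deleted stroma 1 fell and 6 did not pass, with a median log2 fold change of -0.82, and in control stroma 3 fell and 4 did not pass, with a median of -0.88. Without deleted oil library 1 the deleted median was -0.47, and without control oil library 1 the control median was -0.45. The members called lower, Ddit3 in both genotypes and Atf4 and Trib3 in control stroma, act downstream of PERK or a related kinase. The sensors themselves were not called, and kinase activity was not measured.

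Ddit3 (CHOP; chromosome 10, 127290829 to 127293753), a transcription factor that promotes cell death under lasting stress, had 61.4 and 73.4 CPM in the deleted estradiol libraries and 175 and 139 CPM in the deleted oil libraries, and 58.4 and 65.0 CPM in the control estradiol libraries and 248 and 170.3 CPM in the control oil libraries. Every estradiol library was below every oil library. It fell by 1.22 ± 0.23 on the log2 scale in deleted stroma (adjusted p = 0.00699) and by 1.76 ± 0.23 in control stroma (adjusted p = 0.00147). Without the 2 oil libraries numbered 1 it fell by 1.05 and by 1.49 (adjusted p = 0.00436 in deleted stroma and 8.12e-04 in control stroma). In control stroma it passed under every alternative tried, and in deleted stroma under all but the one without deleted estradiol library 1, where it had a value of -1.09 (adjusted p = 0.0819).

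Atf4 (chromosome 15, 80255184 to 80257541), the transcription factor whose translation rises when PERK or a related kinase is active, had 748 and 737 CPM after estradiol and 1591 and 1028 CPM after oil in deleted stroma, with 756 and 862 CPM after estradiol and 2455 and 1153 CPM after oil in control stroma. The groups did not overlap in either genotype, and control oil library 1 was more than 2-fold above control oil library 2. Atf4 fell by 1.16 ± 0.34 on the log2 scale in control stroma (adjusted p = 0.0332), and its value in deleted stroma was -0.82 ± 0.34 (adjusted p = 0.109). The value in control stroma was -0.48 without control oil library 1 (adjusted p = 0.207). The call was also lost without any 1 of the 4 estradiol libraries (adjusted p of 0.0642 to 0.207 over the 5).

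Trib3, a pseudokinase gene switched on by ATF4 and CHOP, had 12.8 and 12.1 CPM with estradiol against 28.3 and 19.1 CPM with oil in Atg7-deleted stroma, and 19.1 and 17.2 CPM with estradiol against 50.6 and 25.3 CPM with oil in control stroma. It was lower in the estradiol libraries without overlap, by 1.06 ± 0.33 on the log2 scale in control stroma (adjusted p = 0.0395), and its value in deleted stroma was -0.93 ± 0.34 (adjusted p = 0.0791). Without control oil library 1 the value in control stroma was -0.45 (adjusted p = 0.300). Without any 1 of the 4 estradiol libraries the call was lost as well (adjusted p of 0.0717 to 0.300 over the 5). That Atf4 and Trib3 passed in control stroma alone does not make the genotypes differ: the difference between the estradiol effects was 0.34 ± 0.48 for Atf4 and 0.14 ± 0.48 for Trib3 (unadjusted p = 0.499 and 0.779, adjusted p = 0.99995 for both, edgeR quasi-likelihood test).

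Xbp1, whose spliced form drives chaperone and degradation genes, had 311 and 309 CPM in the deleted estradiol libraries and 274 and 298 CPM in the deleted oil libraries, and 376 and 305 CPM in the control estradiol libraries and 347 and 331 CPM in the control oil libraries. The control groups overlapped, and the log2 fold changes were 0.12 ± 0.17 in deleted stroma and 0.01 ± 0.17 in control stroma, with 95% intervals of -0.27 to 0.50 and -0.38 to 0.39. Atf6, the membrane-bound factor that is cleaved in the Golgi, had 66.2 and 57.7 CPM after estradiol and 49.5 and 42.7 CPM after oil in deleted stroma, with 62.9 and 52.7 CPM after estradiol and 47.6 and 42.8 CPM after oil in control stroma. Its estradiol libraries were slightly higher without overlap, and its changes of 0.43 ± 0.19 (adjusted p = 0.128) in deleted stroma and 0.35 ± 0.19 (adjusted p = 0.187) in control stroma did not pass.

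Ern1 (IRE1), the sensor that splices Xbp1, had the fewest reads of the members, with 1.44 and 1.29 CPM with estradiol against 3.32 and 2.68 CPM with oil in Atg7-deleted stroma, and 2.10 and 2.46 CPM with estradiol against 3.79 and 4.60 CPM with oil in control stroma. Its estradiol libraries were lower without overlap, but with only 8 to 26 counts per library the changes of -1.12 ± 0.46 (adjusted p = 0.104) in deleted stroma and -0.88 ± 0.42 (adjusted p = 0.144) in control stroma did not pass. Eif2ak3 (PERK), the kinase that slows translation, had 59.6 and 57.3 CPM in the deleted estradiol libraries and 102 and 49.0 CPM in the deleted oil libraries, and 67.0 and 53.3 CPM in the control estradiol libraries and 95.8 and 49.0 CPM in the control oil libraries. In each genotype oil library 1 was the highest and oil library 2 the lowest of the 4, so the groups overlapped, and the changes were -0.37 ± 0.38 in deleted stroma and -0.27 ± 0.38 in control stroma.

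Chaperones and translocon genes were also set against stress factors inside each library, by a ratio that does not tell which side moved. The summed CPM of the 15 chaperones and 7 translocon genes, divided by that of the 7 stress sensors and factors, was 10.7 and 9.85 in the deleted estradiol libraries and 3.48 and 3.75 in the deleted oil libraries. In the control libraries it was 10.2 and 10.2 with estradiol and 3.15 and 3.54 with oil. The ratio averaged 10.3 ± 0.582 with estradiol and 3.61 ± 0.190 with oil in deleted stroma (SD, n = 2 libraries), and 10.2 ± 0.0239 with estradiol and 3.34 ± 0.274 with oil in control stroma. The difference between treatments was many times the spread within a group, and the genotypes lay close together within each treatment. Most of the summed CPM came from few genes, with Atf4, which was not called in deleted stroma, at 56.4% to 75.6% of the stress sum. Without Hspa5 and Atf4 the ratio was 17.2 ± 1.15 with estradiol and 6.42 ± 0.434 with oil in deleted stroma, and 17.2 ± 1.61 with estradiol and 5.79 ± 0.620 with oil in control stroma. Control oil library 1 had both the highest stress sum, 3248 CPM, and the highest chaperone and translocon sum of the oil libraries, 10229 CPM, and its ratio was the lowest of all 8. These ratios are descriptions of chosen genes and carry no test.

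**Figure D4:**
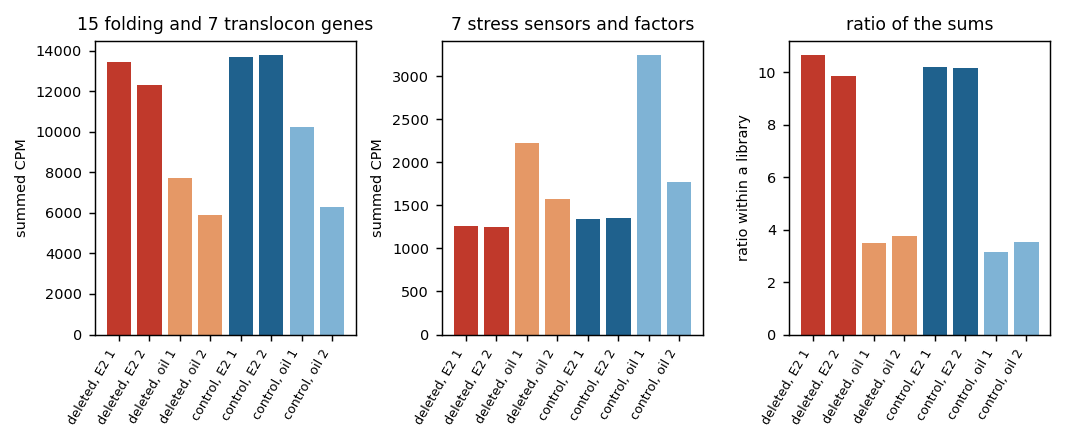
Summed CPM of chaperones and translocon genes (left), summed CPM of stress sensors and factors (middle) and their ratio (right) in each library, as bars from 0. The 4 estradiol libraries have ratios of 9.85 to 10.7 and the 4 oil libraries of 3.15 to 3.75, although the sums of control oil library 1 stand above those of the other oil libraries.

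Other genes of the same pathway were taken from lists that share no member with the 38. For each list and genotype, only the called genes with the smallest adjusted p, up to 4, are named. A gene named for 1 genotype may therefore have moved in the other as well. None of the 13347 genes tested passed for a difference between the estradiol effects. Of all genes, 13.1% were called higher and 11.2% lower in deleted stroma, and 15.8% higher and 14.0% lower in control stroma. Of 34 further ER folding genes, 22 rose (64.7%) and 1 fell in deleted stroma, and 21 rose (61.8%) and 1 fell in control stroma. Serpinh1 (HSP47), the collagen chaperone, averaged 3337 ± 494 CPM with estradiol and 619 ± 99.5 CPM with oil in deleted stroma, and 3339 ± 196 CPM with estradiol and 518 ± 16.0 CPM with oil in control stroma (SD, n = 2 libraries per group). It rose by 2.43 ± 0.21 in deleted stroma and 2.69 ± 0.22 in control stroma, and the collagen prolyl isomerases Fkbp10 and Fkbp14 rose by 2.28 ± 0.21 and 2.79 ± 0.38 in deleted stroma and by 2.65 ± 0.21 and 2.82 ± 0.40 in control stroma. Cnpy3 rose by 1.42 ± 0.18 in control stroma, and Cnpy4 by 1.25 ± 0.17 in deleted stroma. In deleted stroma Cnpy3 averaged 88.9 CPM with estradiol and 44.7 CPM with oil. In control stroma Cnpy4 averaged 58.5 CPM with estradiol and 31.1 CPM with oil. Of 11 tested subunits of the oligosaccharyl transferase, which adds sugar chains as proteins enter, 8 rose in deleted stroma (72.7%) and 10 in control stroma (90.9%), and none fell. Among them Ddost rose by 1.33 ± 0.20 in deleted stroma and 1.64 ± 0.20 in control stroma, Tmem258 by 1.36 ± 0.20 and 1.58 ± 0.20, and Krtcap2 by 1.02 ± 0.16 and 1.29 ± 0.16. Ostc rose by 2.32 ± 0.38 in deleted stroma, and Rpn2 by 1.25 ± 0.18 in control stroma.

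Of 23 further targeting and translocation genes, 8 rose in deleted stroma (34.8%) and 7 in control stroma (30.4%), and none fell. Tram1, which sits beside the channel, rose by 0.81 ± 0.18 in deleted stroma and 0.98 ± 0.18 in control stroma, and Sec63, the membrane J-domain partner of the channel, by 0.64 ± 0.17 and 0.61 ± 0.17. Wrb and Asna1, of the tail-anchor insertion pathway, rose by 1.28 ± 0.26 in deleted stroma (Wrb) and 1.23 ± 0.26 in control stroma (Asna1). Srp19, of the signal recognition particle, rose by 1.08 ± 0.23 in deleted stroma, and Emc10, of the membrane insertase, by 0.72 ± 0.20 in control stroma. Of 24 further degradation genes, 6 rose and 1 fell in deleted stroma, and 5 rose and 1 fell in control stroma. The shares called in either direction, 29.2% in deleted and 25.0% in control stroma, lay near the 24.3% and 29.8% of all genes. The derlins Derl2 and Derl1 rose by 1.37 ± 0.19 and 0.87 ± 0.19 in deleted stroma and by 1.16 ± 0.19 and 0.73 ± 0.19 in control stroma, and Vimp by 1.07 ± 0.26 in deleted stroma and 1.09 ± 0.26 in control stroma. Erlec1, a lectin, rose by 0.65 ± 0.19 in control stroma, and the mannosidase Man1b1 fell by 0.84 ± 0.21 in deleted stroma.

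Of 17 further sensors and membrane-bound factors, 2 rose and 1 fell in deleted stroma (17.6% called, against 24.3% of all genes), and 5 rose and 1 fell in control stroma (35.3%, against 29.8%). Creb3l1 (OASIS), a membrane-bound factor known for driving collagen genes in bone, averaged 96.0 ± 11.8 CPM with estradiol and 11.0 ± 1.76 CPM with oil in deleted stroma, and 98.3 ± 35.8 CPM with estradiol and 12.7 ± 5.69 CPM with oil in control stroma. It rose by 3.12 ± 0.36 in deleted stroma and 2.94 ± 0.36 in control stroma on the log2 scale. Atf6b, the relative of Atf6, rose by 1.07 ± 0.27 in deleted stroma and 1.08 ± 0.27 in control stroma. Eif2ak1, the heme-regulated kinase of the same substrate as PERK, rose by 0.98 ± 0.25 in control stroma. Nfyb, a subunit of the NF-Y factor that binds the CCAAT box, fell by 0.75 ± 0.20 in each genotype.

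Of 24 tested genes known as targets of ATF4 or CHOP, 6 fell (25.0%, against 11.2% of all genes) and none rose in deleted stroma, and 7 fell (29.2%, against 14.0%) and 2 rose in control stroma. In either direction the shares called were 25.0% in deleted stroma, near the 24.3% of all genes, and 37.5% in control stroma, against 29.8%. The list did not move down as a whole. Its median log2 fold change was -0.23 in deleted stroma, with 9 of 24 values positive, and -0.01 in control stroma, with 12 of 24 positive. Ppp1r15a (GADD34), the phosphatase subunit that ends the PERK signal, averaged 703 ± 46.8 CPM with estradiol and 1653 ± 130 CPM with oil in deleted stroma, and 717.5 ± 81.5 CPM with estradiol and 1776 ± 49.3 CPM with oil in control stroma. It fell by 1.23 ± 0.18 in deleted stroma and 1.31 ± 0.18 in control stroma. Atf3 fell by 1.33 ± 0.18 in deleted stroma and 1.27 ± 0.18 in control stroma, and Chac1, which degrades glutathione, by 2.06 ± 0.35 and 2.04 ± 0.33. Bbc3 (PUMA) fell by 0.91 ± 0.19 in deleted stroma. Slc7a11, the cystine transporter, went the other way and rose by 1.41 ± 0.31 in control stroma. Ppp1r15a and Atf3 are also known as early response genes. Of 13 other early response and heat shock genes, 7 fell in each genotype and none rose. Of all genes, 11.2% fell in deleted stroma and 14.0% in control stroma.

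Markers of other cells moved with the treatment as well. The 14 epithelial markers summed to 1432 and 1998 CPM in the deleted estradiol libraries and 11452 and 4913 CPM in the deleted oil libraries, and to 1457 and 3143 CPM in the control estradiol libraries and 18406 and 6258 CPM in the control oil libraries. Of them 6 fell and 1 rose in deleted stroma, and 8 fell and 1 rose in control stroma, with Cldn4, Cdh1 and Krt18 the most abundant. The 12 fibroblast markers summed to 8242 to 8888 CPM in the deleted estradiol libraries and 2459 to 3089 CPM in the deleted oil libraries, against 6130 to 8668 CPM and 2045 to 2544 CPM in the control estradiol and oil libraries, and 8 of 12 rose in each genotype, the collagens Col1a1 and Col1a2 among the 3 with the highest levels. Dcn (decorin), the third, had 1131 and 1102 CPM in the deleted estradiol libraries and 1384 and 1526 CPM in the deleted oil libraries, and 743 and 707 CPM in the control estradiol libraries and 1251 and 1023 CPM in the control oil libraries. It was the 1 fibroblast marker that fell in control stroma, by 0.65 on the log2 scale, and its value in deleted stroma, -0.38, did not pass. The early response and heat shock genes, with Jun, Nr4a1 and Fosb the most abundant, summed to 10163 to 13253 CPM with estradiol and 19829 to 22310 CPM with oil in deleted stroma. In control stroma they summed to 12767 to 16713 CPM with estradiol and 24297 to 28027 CPM with oil. Smooth muscle markers summed to 6086 to 7019 CPM in the 4 estradiol libraries and 1497 to 3837 CPM in the 4 oil libraries. The 8 endothelial markers (1084 to 1688 CPM) and 8 macrophage markers (112 to 249 CPM) overlapped between treatments in at least 1 genotype, as did the 4 plasma cell markers listed (27.5 to 129 CPM). Granulocyte markers summed to 4.58 to 29.5 CPM and lymphocyte markers to 0.698 to 3.31 CPM. No marker was at 0 in every library. The part of these cells in the results was not tested, and in bulk RNA fewer cells of a type and less RNA per cell cannot be told apart.

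The oil libraries numbered 1 had the highest epithelial sums, and they also had the higher Atf4, Trib3, Ddit3, Hspa5 and Sec61a1 levels of the oil pair in each genotype. Without both of them, 27 members passed in deleted stroma and 27 in control stroma, in place of 24 and 26. Hspa5 was then called higher in deleted stroma at 0.67 (adjusted p = 0.0364) and had a value of 0.59 in control stroma (adjusted p = 0.0518), Atf4 fell by 0.53 in control stroma (adjusted p = 0.0445), and Trib3 had a value of -0.50 in control stroma (adjusted p = 0.165).

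The deletion of Atg7 was the question named for the series, and none of the 38 genes passed the test for it. This held for oil-treated stroma, for estradiol-treated stroma, for the average of both and for the difference between the estradiol effects. The share called over all genes was 0% in each of these comparisons. At an unadjusted p below 0.05 there was no member in oil-treated or estradiol-treated stroma or for the difference, against 339, 403 and 210 of the 13347 genes tested. For the average effect there was 1, Trib3, against 543 of all genes. DESeq2 also called no member in any of these comparisons.

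Averaged over treatments, 30 of the 38 genes had a negative log2 fold change of deleted over control, with a median of -0.14 against -0.01 over all genes. The medians were -0.20 for chaperones, -0.02 for the translocon, -0.21 for the signal peptidase, -0.05 for degradation and -0.19 for stress sensors and factors. The 95% interval lay within 2-fold in either direction for 35 of the 38, and the exceptions were Spcs3, Trib3 and Ern1. Trib3 had an average log2 fold change of -0.61 ± 0.24 (unadjusted p = 0.0294, adjusted p = 0.999, edgeR), with 12.8 and 12.1 CPM in deleted and 19.1 and 17.2 CPM in control libraries after estradiol. After oil it had 28.3 and 19.1 CPM in deleted and 50.6 and 25.3 CPM in control libraries, which overlapped. Ern1 had an average of -0.60 ± 0.31, with lower levels in the deleted libraries in both treatments, all libraries lying between 1.29 and 4.60 CPM. Spcs3 had -0.37 ± 0.56, with an interval of -1.62 to 0.89.

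**Figure D5:**
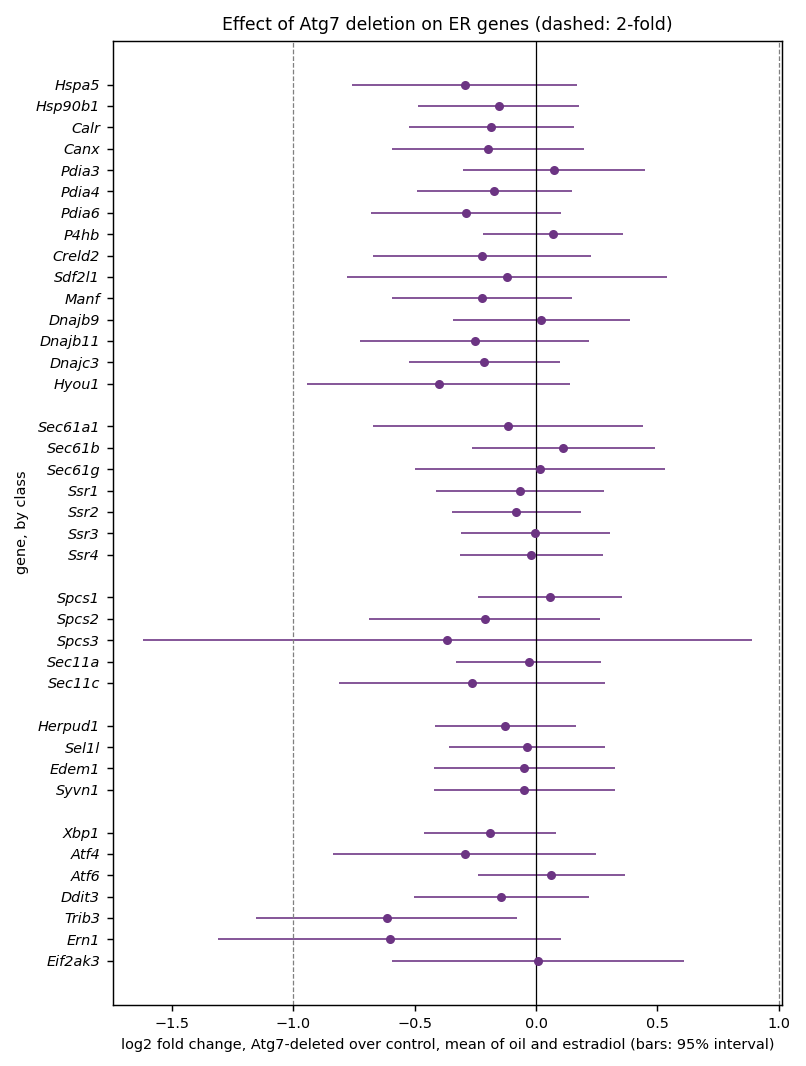
Log2 fold change of Atg7-deleted over control stroma, averaged over oil and estradiol, for the 38 genes, with bars for the 95% interval and dashed lines at 2-fold. Most points lie slightly left of 0, and the intervals of 35 genes stay between the dashed lines.

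In oil-treated stroma, the deleted libraries lay below both control libraries for 4 members (10.5%, against 11.6% of all genes), Dnajc3, Spcs2, Xbp1 and Ern1, and above them for none (against 12.9% of all genes). In estradiol-treated stroma they lay below for 11 (28.9%, against 18.2% of all genes) and above for none (against 16.0% of all genes). These 11 were Hspa5, Calr, Canx, Pdia4, Creld2, Hyou1, Ssr2, Ssr4, Atf4, Trib3 and Ern1. Creld2 had 36.9 and 29.6 CPM in deleted and 50.1 and 42.0 CPM in control estradiol libraries, a log2 fold change of -0.47 ± 0.27 (unadjusted p = 0.112). Pdia4 had 123 and 97.5 CPM in deleted and 159 and 124 CPM in control estradiol libraries, a log2 fold change of -0.36 ± 0.20 (unadjusted p = 0.0986). After oil the log2 fold changes of deletion were 0.03 ± 0.29 for Creld2 and 0.02 ± 0.20 for Pdia4.

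The response to estradiol did not differ detectably between genotypes for any member. The difference between the log2 fold changes in deleted and in control stroma was positive for 19 genes and negative for 19, with a median of -0.02. Its 95% interval stayed within 2-fold for 21 of the 38, and for the other 17 it reached past 2-fold, so a difference of that size is not excluded for them. Ddit3 had the smallest p, with a difference of 0.54 ± 0.32 (unadjusted p = 0.123, interval -0.18 to 1.26), since its fall was smaller in deleted stroma. For Hspa5 the difference was 0.31 ± 0.41, for Xbp1 0.11 ± 0.24 and for Sec61b -0.06 ± 0.33.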

How the data were processed

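The authors deposited 1 file of raw read counts per gene symbol for each of the 8 libraries, in 4 groups of 2. Totals ran from 5458390 to 6951080 whole-number counts per library. Per the labels' protocols, each library was made from 500 ng of total RNA (Trizol) with the Lexogen QuantSeq kit, and its reads start at 3′ ends. Bowtie2, edgeR and the build mm10 are named, without roles, per the submitters' processing notes, and the counter, annotation, versions and strand setting were not given in the sources used here. Each file had 23282 lines for 23238 symbols, and where a symbol had several lines (35 symbols) that with the highest total was used.

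Genes were kept with filterByExpr in edgeR 4.0.16 (R 4.3.3) at a minimum count of 10 and a minimum total count of 15, leaving 13347 genes and all 38 members. Quasi-likelihood tests were fitted to 4 group means over all 8 libraries with TMM scaling (factors 0.918 to 1.03), with Benjamini-Hochberg adjustment over all genes tested at 0.05. The model had 4 residual and 5.08 prior degrees of freedom and a biological coefficient of variation of 21.8%. The comparisons were estradiol against oil in each genotype, deletion against control in each treatment, its average, and the difference between the estradiol effects. SE and 95% intervals come from the fold change and its test statistic. CPM was computed with the TMM factors.

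The members and gene lists were chosen with earlier results of these data known, and no list was tested as a set. Levels per library are given for members called in any comparison, for all stress sensors and factors, and for Hspa5 and Sec61a1, which were not called. Other pathway genes are the up to 4 called genes per list and comparison with the smallest adjusted p. The markers named are the 3 most abundant per list. Motifs were searched as exact letters in RefSeq promoter windows (GRCm38.p6). For 26 of the 31 members, a stretch within the 50 bases after the start site lay in a GENCODE transcript of the gene. Alternatives were RLE scaling, library totals alone, DESeq2 1.42.0, no filter, a stricter filter, a replicate block, summed repeated symbols, the groups of the comparison alone and leaving out each library. The fits were tested on simulated counts.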

Additional observations from a re-analysis of the deposited data

How the results depend on the processing

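No fold change of a called member changed sign under 17 alternatives, 16 of them planned and 1 chosen after seeing the data, which left out the 2 oil libraries numbered 1. No member was called for the deletion in oil-treated or estradiol-treated stroma under any of the 17. None was called for the average deletion effect or the difference between estradiol effects under 16, since the fit of the compared groups alone gives neither. For the average effect DESeq2 called 3 of all genes, and the fit without a filter 4. Of the members called for estradiol, 11 of 24 in deleted stroma and 15 of 26 in control stroma passed under all 17. The 11 are Calr, Pdia4, Pdia6, P4hb, Sdf2l1, Manf, Sec61b, Sec61g, Ssr2, Ssr3 and Ssr4, and the 15 are these without Ssr3 and with Hsp90b1, Pdia3, Creld2, Spcs1 and Ddit3.

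Leaving out 1 library at a time gave 11 to 29 members called in deleted stroma, 11 without deleted estradiol library 1 and 15 without deleted oil library 2, and 15 to 27 in control stroma, 15 without control estradiol library 1. The median log2 fold change of estradiol then ran from 0.92 to 1.49 for the signal peptidase in deleted stroma, and in control stroma from 1.20 to 1.66 for the translocon, 1.05 to 1.35 for the signal peptidase and 0.40 to 0.88 for degradation. For stress sensors and factors it ran from -1.10 to -0.47 in deleted stroma and from -0.99 to -0.45 in control stroma, in each case nearest 0 without oil library 1 of that genotype. For the average deletion effect it ran from -0.16 to 0.12 for the translocon and -0.36 to 0.054 for the signal peptidase. Without the 2 oil libraries numbered 1 the control medians were 1.61 for the translocon and 0.40 for degradation. Fitting only the groups compared called 30 members in deleted stroma and 20 in control stroma. Over all alternatives Atf4 ran from -1.64 to -0.48 in control stroma and Trib3 from -1.51 to -0.45.

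Groups share the numbers 1 and 2 in the labels, which say nothing of what a number marks. Differences between library 1 and library 2 correlated across genes at 0.49 between the oil groups and 0.23 between the estradiol groups, but at -0.01 between treatments in deleted stroma and -0.23 in control stroma. A replicate block called 27 members in each genotype. It lost Spcs3 in control stroma and gained Canx and Hyou1 in both genotypes and Trib3 in deleted stroma. With 2 libraries per group, changes of 2-fold or less were often not detectable.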

Other observations

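Genes of transport out of the ER, the step that follows folding, were counted in the same way. Of 29 tested, 17 rose after estradiol in each genotype (58.6%, against 13.1% of all genes in deleted stroma and 15.8% in control stroma) and none fell, with median log2 fold changes of 0.92 in deleted stroma, against 0.02 over all genes, and 0.89 in control stroma, against 0.01 over all genes. Tmed3, a cargo receptor of the p24 family, averaged 116 ± 11.8 CPM with estradiol and 41.6 ± 2.43 CPM with oil in deleted stroma, and 123 ± 7.15 CPM with estradiol and 33.9 ± 4.56 CPM with oil in control stroma (SD, n = 2 libraries per group). It rose by 1.48 ± 0.18 in deleted stroma and 1.86 ± 0.19 in control stroma on the log2 scale (± SE). Sec13, a coat protein of the vesicles that leave the ER, averaged 124 ± 11.3 CPM with estradiol and 37.5 ± 4.72 CPM with oil in deleted stroma, and 110.1 ± 3.39 CPM with estradiol and 32.2 ± 10.8 CPM with oil in control stroma. It rose by 1.73 ± 0.24 in deleted stroma and 1.77 ± 0.24 in control stroma. Yif1a rose by 1.62 ± 0.20 in deleted stroma and 1.65 ± 0.20 in control stroma, and Trappc1, a subunit of the tethering complex, by 1.49 ± 0.20 in deleted stroma and 1.59 ± 0.20 in control stroma.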
